A study of Bos grunniens with 12 samples.

Results

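The 8 genes described here mark the cells that surround and lie between the seminiferous tubules. ACTA2, TAGLN, MYH11, CNN1 and DES encode contractile and cytoskeletal proteins of smooth muscle, which the peritubular myoid cells share. DCN, LUM and PDGFRA are genes of stromal cells and fibroblasts. They were taken by gene symbol from the deposited expression table of 20953 rows, in which each symbol stood on 1 row. All 8 genes had a mean of at least 0.5 FPKM over the input libraries and were tested. The unit, FPKM, corrects fragment numbers for both transcript length and library size, so levels of different genes can be set side by side.

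Testes came from healthy domesticated yaks (Bos grunniens), 3 aged 1.5 years and 3 aged 5 years, and no treatment was given. Each testis was sequenced as a library of fragments pulled down with an m6A antibody (IP) and as an input library, 12 libraries in all. The expression table holds the 6 input libraries, named here by age and by the replicate number in their titles. The younger testes were removed by castration and the older ones were taken from killed animals (slaughtered in the record, euthanized in the article's methods), so the age and the way of collection cannot be told apart.

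Peritubular myoid cells form the flattened, contractile layer around each seminiferous tubule. They lay down part of its basement membrane, and their contractions move fluid and sperm along the tubule. Desert hedgehog from Sertoli cells and platelet-derived growth factors are known signals in their development, and the smooth muscle of blood vessels uses many of the same contractile genes. Decorin and lumican are small leucine-rich proteoglycans that bind collagen fibrils, and PDGFRA is a receptor for platelet-derived growth factors on interstitial cells.

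The ages were taken from the titles and the growth protocol. Another field, the developmental stage, contradicts them in all 12 libraries, since it gives each age the stage of the other, and no library was placed by its values. The letters M and Y stand for opposite ages in the record and in the article's methods. If the ages were exchanged, every direction given here would turn around. Late spermatid transcripts, which belong to testes with complete spermatogenesis, were present in every library and were more abundant in those labelled with the age before sexual maturity. In the article's histology, testes of that age showed no germ cells beyond spermatogonia and a few primary spermatocytes. The transcript levels under these labels conflict with that histology, and the reason was not tested. The summed FPKM of 4 elongating spermatid genes lay between 1154 and 1195 in the libraries labelled 1.5 years and between 262.5 and 848.7 in those labelled 5 years. TNP1 made up most of each of these sums. Replicate 2 of the 5-year-old group stood nearer to the 1.5-year-old libraries (Pearson r across genes of 0.942 to 0.947) than to replicate 1 of its own group (0.868). Its r with replicate 3 of its own group was 0.935. Replicate 1 of 5 years stood farthest from the younger libraries, at an r of 0.817 to 0.837. Summed over all rows, the FPKM of a library lay between 116187 and 139921.

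All 8 genes had a higher mean FPKM in the 5-year-old than in the 1.5-year-old testes, by 1.17-fold for CNN1 to 2.16-fold for DCN. The median log2 fold change of the 8 genes was 0.70, beside 0.04 for the 12437 rows tested, of which 53.5% had a positive value. None of the 8 genes had an adjusted p-value under 0.05 in limma (Benjamini-Hochberg over all rows tested), a threshold that 4 of all rows passed (0.0322%), 2 of them with a higher level at 5 years (0.0161%). An unadjusted p-value under 0.05 with a higher level at 5 years was found for 5 of the 8 genes, namely ACTA2, TAGLN, MYH11, DES and DCN, beside 14.2% of all rows. In 4 genes (ACTA2, TAGLN, MYH11 and DCN) every 5-year-old library lay above every 1.5-year-old library, beside 19.8% of all rows, and in none did all of them lie below, beside 13.9% of all rows. FPKM is relative to the rest of the library. In whole testis, more cells of a type, more RNA per cell and less RNA from other cells cannot be told apart.

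**Figure D1:**
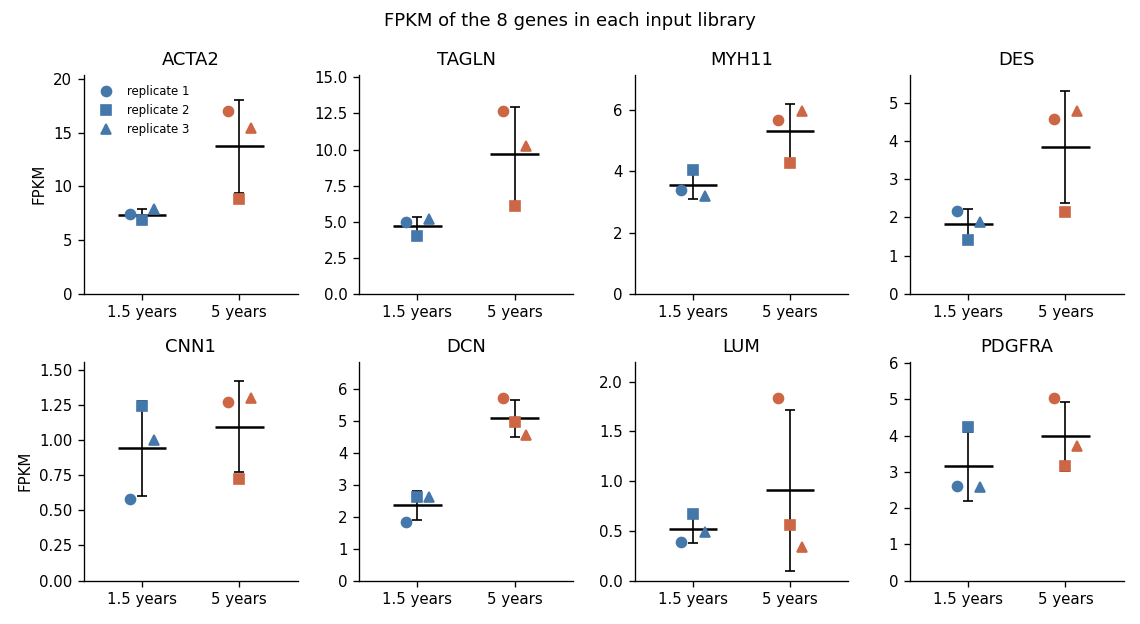
FPKM (vertical axes, linear from 0) of each gene in the 3 input libraries of 1.5 years (blue) and the 3 of 5 years (orange), with the replicate number as the marker shape, the mean as a line and the SD as a bar. In ACTA2, TAGLN, MYH11 and DES the 5-year-old libraries spread widely, with replicate 2 (square) near the younger group, whereas all 3 lie well above it in DCN.

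ACTA2 (ENSBGRG00000017216), the smooth muscle alpha actin that is the usual marker of myoid cells, had the highest level of the 8 genes in every library. Its FPKM was 7.39, 6.85 and 7.87 in replicates 1, 2 and 3 of 1.5 years and 17.0, 8.81 and 15.4 in replicates 1, 2 and 3 of 5 years. The younger libraries lay close together, and in the older group replicates 1 and 3 were at 2.31 and 2.10 times the younger mean while replicate 2 was at 1.20 times. The means were 7.37 ± 0.51 and 13.7 ± 4.34 FPKM (SD, n = 3 each), and the log2 fold change was 0.84 (standard error 0.25, unadjusted p = 0.0126, adjusted p = 0.154, limma).

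TAGLN (ENSBGRG00000025309) encodes transgelin, an actin-binding protein of smooth muscle that appears early in its differentiation. It was at 4.98, 4.02 and 5.17 FPKM in the 1.5-year-old libraries and at 12.7, 6.11 and 10.2 FPKM in the 5-year-old libraries. The order of the older libraries was that of ACTA2, and the groups did not overlap. The log2 fold change was 0.96 (standard error 0.27, adjusted p = 0.154, limma).

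DES (ENSBGRG00000020017), the muscle intermediate filament desmin, was at 2.17, 1.40 and 1.89 FPKM at 1.5 years and at 4.58, 2.15 and 4.78 FPKM at 5 years. Replicate 2 of 5 years fell just under the highest younger library, so the groups overlapped. The log2 fold change was 0.97 (standard error 0.33, adjusted p = 0.164, limma).

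MYH11 (ENSBGRG00000024236), the smooth muscle myosin heavy chain, was at 3.39, 4.05 and 3.18 FPKM at 1.5 years and at 5.67, 4.27 and 5.96 FPKM at 5 years. Its groups were separated by a narrow gap, between replicate 2 of each age. The log2 fold change was 0.56 (standard error 0.19, adjusted p = 0.158, limma).

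CNN1 (ENSBGRG00000013580) encodes calponin 1, which binds actin and restrains myosin ATPase in mature smooth muscle. Its FPKM was 0.578, 1.24 and 1.00 at 1.5 years and 1.27, 0.721 and 1.30 at 5 years. Replicates 1 and 3 of 5 years lay just above the highest younger library and replicate 2 within the younger range. The log2 fold change was 0.22 with a 95% interval from -0.62 to 1.05, which holds both no difference and the value of ACTA2. Without replicate 1 of 1.5 years it was -0.07.

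Set against ACTA2 in the same library, TAGLN was at a ratio of 0.640 ± 0.046 at 1.5 years and 0.701 ± 0.041 at 5 years (SD, n = 3 each). The ratio of DES to ACTA2 was 0.246 ± 0.045 and 0.274 ± 0.033. Over the 6 libraries the TAGLN ratio ran from 0.588 to 0.745 and the DES ratio from 0.204 to 0.310. The ratio of MYH11 to ACTA2 was 0.485 ± 0.097 and 0.402 ± 0.077. The ratio of CNN1 to ACTA2 was 0.129 ± 0.052 at 1.5 years, with values from 0.0783 to 0.182, and 0.0802 ± 0.0049 at 5 years. The ages overlapped in all 4 ratios, and the CNN1 ratio varied more among the younger than among the older testes.

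DCN (ENSBGRG00000002168), the proteoglycan decorin, had the lowest p-value of the 8 genes. It was at 1.83, 2.62 and 2.62 FPKM in the 1.5-year-old libraries and at 5.73, 4.97 and 4.57 FPKM in the 5-year-old libraries. Unlike in the contractile genes, replicate 2 of 5 years was not the lowest of its group, and it stood at 2.11 times the younger mean. The means were 2.36 ± 0.46 and 5.09 ± 0.59 FPKM (SD, n = 3 each), with a log2 fold change of 1.09 (standard error 0.19, unadjusted p = 0.00075, adjusted p = 0.154, limma).

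LUM (ENSBGRG00000002309), the related proteoglycan lumican, was the least abundant of the 8 genes by its mean over all libraries. It was at 0.390, 0.667 and 0.488 FPKM at 1.5 years and at 1.83, 0.560 and 0.334 FPKM at 5 years. Only replicate 1 of 5 years was above 1 FPKM, replicate 2 lay among the younger libraries and replicate 3 below all of them. The log2 fold change was 0.44 with a 95% interval from -0.89 to 1.77, and it was -0.18 without that library.

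PDGFRA (ENSBGRG00000024258), the receptor, was at 2.62, 4.25 and 2.59 FPKM at 1.5 years and at 5.04, 3.17 and 3.72 FPKM at 5 years. The groups overlapped, and the log2 fold change was 0.34 with a 95% interval from -0.27 to 0.95. The ratio of DCN to PDGFRA was 0.697, 0.618 and 1.01 in the younger libraries and 1.14, 1.57 and 1.23 in the older ones, so that decorin stood above the receptor in every library of 5 years.

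By mean level the order at 1.5 years was ACTA2, TAGLN, MYH11, PDGFRA, DCN, DES, CNN1 and LUM. At 5 years DCN (5.09 FPKM) stood next to MYH11 (5.30 ± 0.90 FPKM, SD, n = 3), and PDGFRA (3.98 ± 0.96 FPKM) next to DES (3.84 ± 1.47 FPKM), and the neighbours of these pairs did not differ beyond their spread. At 1.5 years the same held for MYH11 (3.54 ± 0.46 FPKM) and PDGFRA (3.15 ± 0.95 FPKM). Against all rows of the table, the mean of ACTA2 over the 6 libraries was at percentile 85.5 and that of LUM at percentile 44.0.

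**Figure D2:**
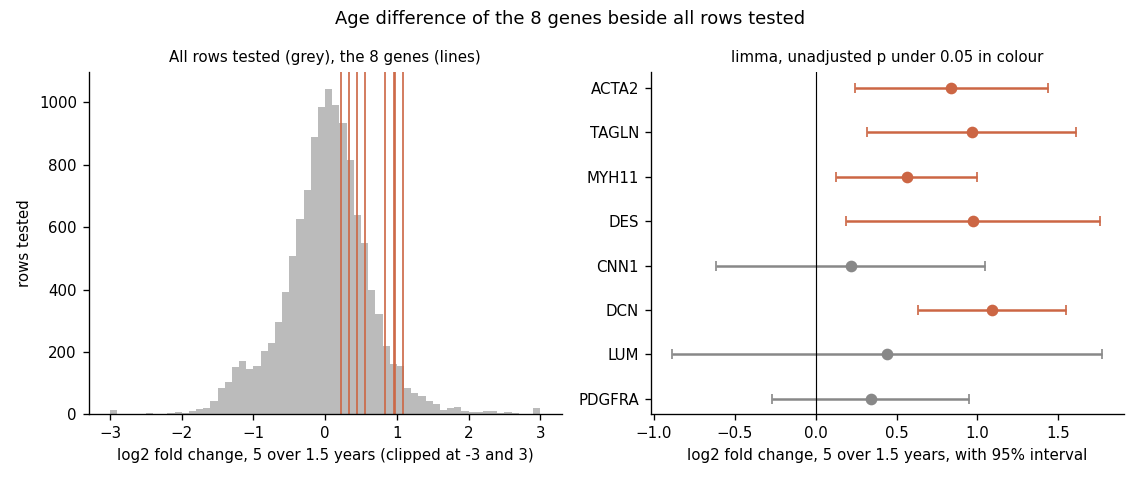
Left, the number of rows tested (grey bars) by log2 fold change of 5 over 1.5 years, with the 8 genes as vertical lines. Right, the log2 fold change of each gene with its 95% interval from limma, coloured where the unadjusted p-value is under 0.05. All 8 lines lie above 0, between 0.22 and 1.09, and the intervals of CNN1, LUM and PDGFRA hold 0.

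The outcome of the test turned on replicate 2 of the 5-year-old group. Without it, 5 of the 8 genes were higher at 5 years by the adjusted p-value, beside 10.5% of all rows, and the log2 fold changes were 1.13 for ACTA2 (adjusted p = 0.0165), 1.26 for TAGLN (adjusted p = 0.0183), 1.34 for DES (adjusted p = 0.0223), 1.10 for DCN (adjusted p = 0.0289) and 0.71 for MYH11 (adjusted p = 0.0379) in limma. Nothing in the labels sets this library apart. Without replicate 3 of 5 years, 3 of the 8 genes (ACTA2, TAGLN and DCN) had an unadjusted p-value under 0.05. In that fit 1040 of the 12437 rows were higher at 5 years at the same threshold. The median of the 8 genes lay between 0.58 and 0.91 when each library was left out in turn.

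**Figure D3:**
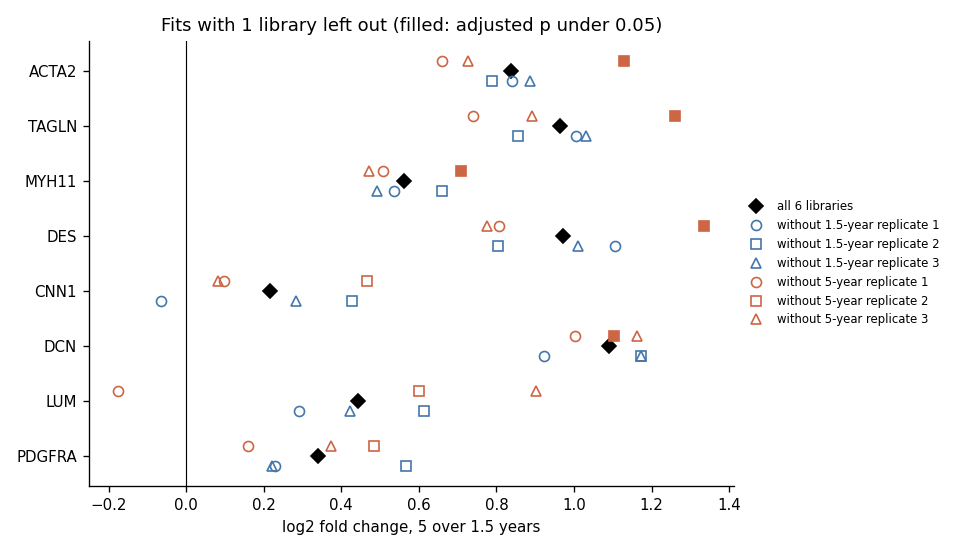
Log2 fold change of 5 over 1.5 years (horizontal axis) of each gene with all 6 libraries (diamond) and after removal of each library in turn (blue, a 1.5-year-old library removed, orange, a 5-year-old one), filled where the adjusted p-value was under 0.05. The 5 filled points are all from the fit without replicate 2 of 5 years, and CNN1 and LUM each have 1 point below 0.

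Other genes of the contractile apparatus were taken as a list of 20, of which 18 had a row and 17 were tested. Of these, 4 had an unadjusted p-value under 0.05, all higher at 5 years, beside 14.2% of all rows. None had an adjusted one, and the median log2 fold change was 0.44. FLNA, an actin cross-linking filamin, had the largest difference of the 4, at 0.89 (5.44 ± 0.30 and 10.5 ± 3.21 FPKM, SD, n = 3 each, adjusted p = 0.154, limma). MYLK, the myosin light chain kinase, was at 0.87, VCL (vinculin, of cell adhesions) at 0.81 and MYL6, a myosin light chain and the most abundant gene of the list, at 0.49. SRF, the transcription factor that binds the promoters of many smooth muscle genes, was at 5.66 ± 0.59 and 5.92 ± 0.28 FPKM (SD, n = 3 each) with a log2 fold change of 0.07 (95% interval -0.27 to 0.41). Its cofactor MYOCD was below the level tested, at 0.132 to 0.172 FPKM in the younger and 0.366 to 0.394 FPKM in the older libraries. The highest value of the list was that of ACTG2, the enteric smooth muscle actin, at 0.98 (0.201 to 0.441 and 0.400 to 0.932 FPKM, adjusted p = 0.209, limma), and the lowest that of PPP1R14A, at -0.06.

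Of 8 further small leucine-rich proteoglycans, 6 were tested, with a median log2 fold change of 0.31. An unadjusted p-value under 0.05 was found for 2, both higher at 5 years, beside 14.2% of all rows. BGN (biglycan) was at 3.45, 3.35 and 3.96 FPKM at 1.5 years and at 8.78, 4.43 and 5.41 FPKM at 5 years, a log2 fold change of 0.72 (adjusted p = 0.168, limma). PRELP was at 0.67 (adjusted p = 0.178). OGN, the most abundant of them, was at 9.95 ± 2.82 and 8.20 ± 1.28 FPKM (SD, n = 3 each), and OMD had the lowest value, -1.24 (unadjusted p = 0.0573). Of the 6 genes, 4 had positive and 2 negative values.

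Of 16 genes of stromal matrix and stromal cell identity, 12 were tested, with a median log2 fold change of 0.70. An unadjusted p-value under 0.05 and a higher level at 5 years was found for 6, beside 14.2% of all rows. COL3A1 and COL1A2, chains of the fibrillar collagens that decorin binds, were at 1.10 and 0.93 (adjusted p = 0.154 each, limma). COL3A1 was at 5.15, 5.55 and 7.37 FPKM at 1.5 years and at 15.2, 10.4 and 13.5 FPKM at 5 years, and replicate 2 of 5 years was clear of the younger group, as in DCN. TCF21, a transcription factor of stromal progenitors, had the largest value of the list, at 1.76 (0.515 ± 0.31 and 1.77 ± 0.38 FPKM, SD, n = 3 each). NR2F2 was at 0.86, FN1 (fibronectin) at 0.77 and FBLN5 (fibulin) at 0.65. SPARC, also made by Sertoli cells, had the highest level and the lowest value, -0.56 (191.3 to 265.7 and 116.6 to 193.6 FPKM, adjusted p = 0.206, limma). It made up most of the list's total, and the summed FPKM of the list was lower at 5 years (182.5 to 240.5) than in 2 of the 3 younger libraries (233.1 to 311.3).

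Of the platelet-derived growth factors and PDGFRB, 4 had a row and all 4 had positive values, with a median of 0.43. PDGFB, a ligand, was the only one with an unadjusted p-value under 0.05 (log2 fold change 0.47, 53.7 ± 3.37 and 75.4 ± 17.3 FPKM, SD, n = 3 each), beside 14.2% of all rows higher at that threshold. The second receptor PDGFRB was at 0.40 (adjusted p = 0.374, limma).

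Among 7 tested genes of the hedgehog pathway, 3 had an unadjusted p-value under 0.05 and a higher level at 5 years, beside 14.2% of all rows. DHH, the ligand secreted by Sertoli cells, was at 2.74, 2.61 and 1.79 FPKM at 1.5 years and at 6.43, 3.43 and 4.71 FPKM at 5 years (log2 fold change 0.98, adjusted p = 0.154, limma). PTCH1, its receptor and itself a target of the pathway, was at 1.94, 2.38 and 2.02 FPKM at 1.5 years and at 6.17, 3.75 and 5.16 FPKM at 5 years, a log2 fold change of 1.19 (unadjusted p = 0.000793, adjusted p = 0.154, limma). SMO, the signal transducer, was at 0.64. HHIP, which binds hedgehog ligands and was the most abundant gene of the list, was at -0.18 (5.18 ± 1.47 and 4.52 ± 1.13 FPKM, SD, n = 3 each). GLI2 and GLI3, the transcription factors, were at 0.20 and -0.23, and the median of the list was 0.20.

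**Figure D4:**
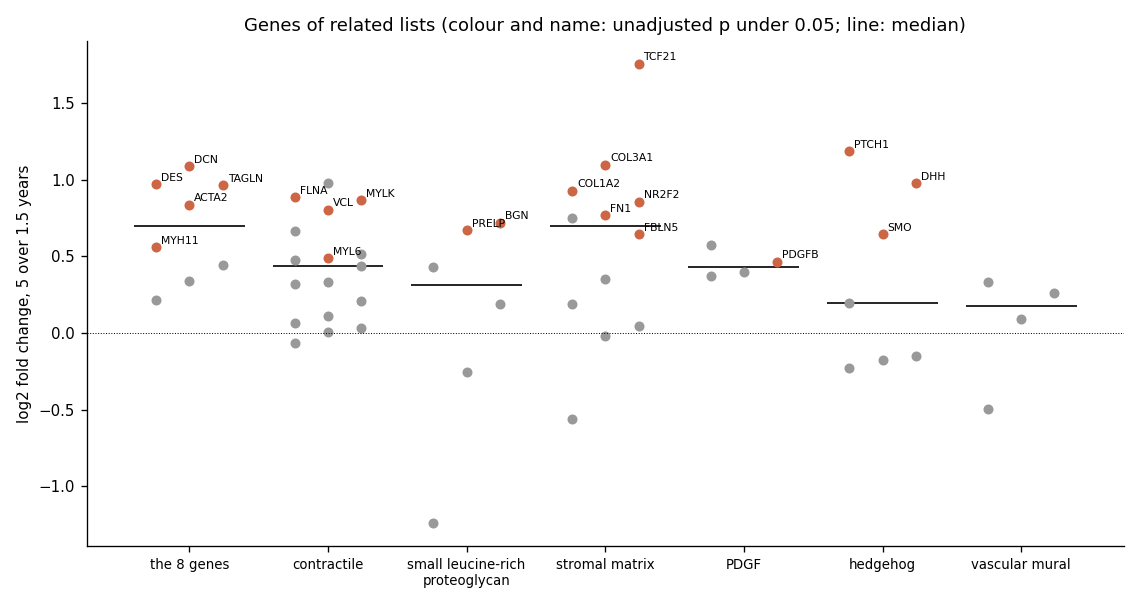
Log2 fold change of 5 over 1.5 years (vertical axis) of the rows tested in each list, with the list median as a line, where colour and name mark the genes whose unadjusted p-value was under 0.05. Such genes number 5 among the 8 genes, 4 in the contractile, 2 in the proteoglycan, 6 in the stromal matrix, 1 in the PDGF, 3 in the hedgehog and 0 in the vascular mural list. All of them are higher at 5 years, as are 14.2% of all rows tested at that threshold.

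Blood vessels also carry smooth muscle. Of 6 markers of vascular mural cells, 4 were tested and none had an unadjusted p-value under 0.05, with a median log2 fold change of 0.18. Among all rows, 14.2% were higher and 10.9% lower at that threshold. RGS5, a defining marker of pericytes, was at 6.54 ± 2.16 FPKM at 1.5 years and 4.54 ± 1.04 FPKM at 5 years (SD, n = 3 each), and its log2 fold change was -0.49 (95% interval -1.13 to 0.14). The other 3 had positive values, with MCAM at 0.34, NOTCH3 at 0.26 (0.788 ± 0.083 and 0.961 ± 0.026 FPKM, SD, n = 3 each, without overlap) and KCNJ8 at 0.09, and none had an adjusted p-value under 0.05. With RGS5 as its most abundant gene, the mural list summed to 7.56 to 12.2 FPKM at 1.5 years and to 6.73 to 8.65 FPKM at 5 years. Of 5 tested endothelial genes, CLDN5 had an unadjusted p-value under 0.05 (log2 fold change 1.03), and the median was 0.12, with sums of 10.2 to 16.0 and 15.7 to 22.4 FPKM.

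Striated muscle, which also expresses desmin, was sought with 10 markers, of which 7 had a row. ACTA1, CKM, MYH1, MYH2 and MYH7 were at 0.213 FPKM or below in every library. TNNC2, a fast troponin, was at 0 to 0.885 and 0.639 to 1.52 FPKM, and the ages overlapped. Its log2 fold change was 1.20 (adjusted p = 0.399, limma), the same direction as DES. MYLPF, a fast light chain, was at 3.52 to 6.40 FPKM at 1.5 years and 0.991 to 3.25 FPKM at 5 years. Its log2 fold change was -1.37 (adjusted p = 0.154, limma), the opposite direction to DES. The part of striated muscle in the level of DES was not tested. The list summed to 4.51 to 7.42 and 1.80 to 4.12 FPKM. Of 6 epididymal epithelium genes with a row, all but LCN8 (0.517 to 1.76 FPKM) were at 0.262 FPKM or below, CRISP1 was listed at 0 in every library, and the list summed to 1.44 to 2.15 and 1.04 to 1.79 FPKM. The 2 erythroid genes with a row were at 0.825 FPKM or below.

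Markers of other testis cells also differed between the libraries. All 5 tested Sertoli cell genes (SOX9, WT1, GATA4, FSHR and INHA) had an unadjusted p-value under 0.05 and were higher at 5 years without overlap. Among all rows, 14.2% were higher and 10.9% lower at that threshold, and 19.8% were higher without overlap. The Sertoli cell list had a median log2 fold change of 0.88 and sums of 71.9 to 83.9 FPKM at 1.5 years and 104.3 to 250.1 FPKM at 5 years. INHA made up most of each of these sums. The 4 elongating spermatid genes had a median of -1.16, and the 4 round spermatid genes a median of -1.10 with sums of 219.9 to 270.5 and 68.0 to 217.9 FPKM. The 5-year-old libraries were also ordered by the median difference of a list from the 1.5-year-old mean, on the log2 scale. From high to low this order was replicate 1, 3, 2 for the 8 genes (1.23, 0.84 and 0.25) and the Sertoli cell list (1.32, 0.72 and 0.39). From low to high it was replicate 1, 3, 2 for the round spermatid list (-1.86, -1.17 and -0.11) and the elongating spermatid list (-2.20, -0.72 and -0.48). Not every one of the 8 genes had the order of their median. MYH11, DES and CNN1 were highest in replicate 3, and DCN and LUM were higher in replicate 2 than in replicate 3. Spermatocyte genes (9 tested, median 0.06, sums of 117.1 to 124.3 and 101.6 to 125.0 FPKM) and spermatogonia genes (6 tested, median 0.33, sums of 55.0 to 61.7 and 61.9 to 113.4 FPKM) had no unadjusted p-value under 0.05. Of 7 listed Leydig cell genes only 3 had a row, and CYP17A1, HSD3B1, INSL3 and LHCGR had none. The 3 Leydig cell genes with a row had a median of 0.12, with STAR at -0.92 (unadjusted p = 0.0071, adjusted p = 0.154, limma), CYP11A1 at 0.12 and NR5A1 at 0.38. They summed to 12.7 to 21.7 and 11.2 FPKM, and STAR was the most abundant of them. The 6 macrophage genes had a median of 0.56, and 3 had an unadjusted p-value under 0.05 but none an adjusted one, namely C1QA at 1.07, C1QB at 1.30 and CD163 at -1.16. CD14, the most abundant, was at 0.55, CSF1R at 0.58 and CD68 at 0.00, and the list summed to 14.1 to 23.2 and 31.2 to 43.0 FPKM. The part of these cells in the level of the 8 genes was not tested.

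**Figure D5:**
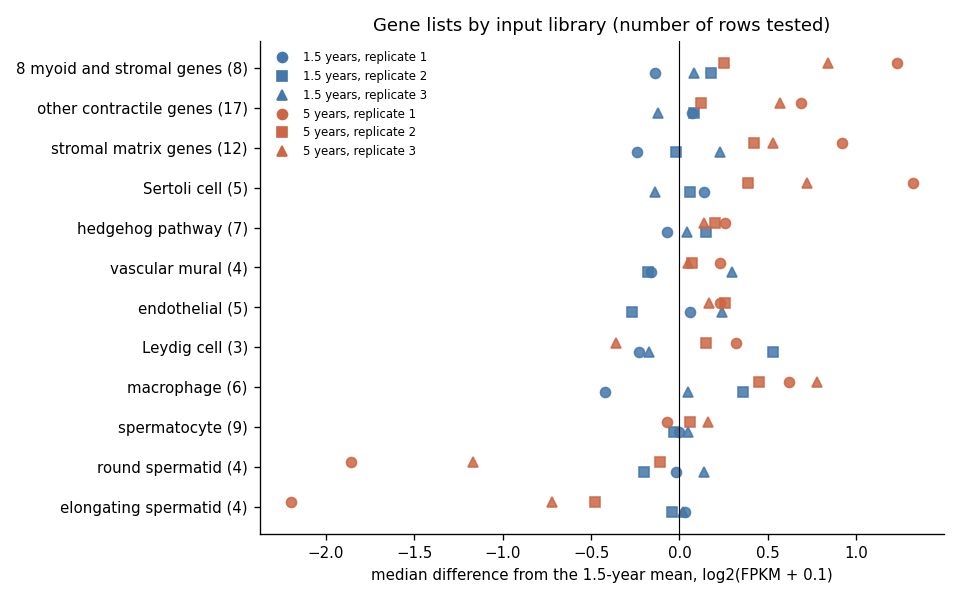
Median difference of the tested rows of each list from their 1.5-year-old mean, on the log2(FPKM + 0.1) scale, in each input library (blue, 1.5 years; orange, 5 years; marker shape, replicate). The medians of the 8 genes and of the Sertoli cell list lie to the right in the order of replicates 2, 3 and 1 of 5 years. Those of the spermatid lists lie to the left in the same order. Single genes among the 8 can have another order.

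The 8 genes were set against the geometric mean of the 5 Sertoli cell genes in the same library, a comparison chosen after the values were seen. This Sertoli cell level was 6.95, 6.75 and 5.53 FPKM at 1.5 years and 16.1, 8.54 and 10.9 FPKM at 5 years. The ratio of ACTA2 to it was 1.06, 1.01 and 1.42 in the younger and 1.06, 1.03 and 1.41 in the older libraries, a mean of 1.17 at each age (SD 0.22 and 0.21, n = 3 each). TAGLN was at 0.749 ± 0.17 and 0.812 ± 0.11, DES at 0.287 ± 0.071 and 0.324 ± 0.099 and DCN at 0.375 ± 0.11 and 0.451 ± 0.12 of it. The Sertoli cell genes themselves differed between the ages in the same libraries, and on this scale 61.7% of all rows tested were lower at 5 years without overlap and 1.62% higher. The ages overlapped in 7 of the 8 genes. PDGFRA was at 0.377, 0.629 and 0.468 of the Sertoli cell level at 1.5 years and at 0.313, 0.371 and 0.340 at 5 years, lower without overlap as in most rows.

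No differential m6A peak between the ages was annotated to any of the 8 genes in the deposited table of 1438 peaks, which fall on 1207 genes. Of all rows 5.63% and of the rows tested for expression 9.29% carried such a peak, so a count of 0 of 8 is near this background. The table lists differences between the ages only, so it does not say whether transcripts of the 8 genes carry m6A. In the related lists, MYLK carried a peak of 285 bp in exon 18 of 37 (chr1:73769514-73769798, build LU_Bosgru_v3.0). FLNA carried a peak of 3759 bp annotated to its 5' UTR (chrX:39975192-39978950) and a peak of 2408 bp annotated to exon 43 of 48 (chrX:39953872-39956279). DHH carried a peak in exon 2 of 4 (chr5:76709039-76709544) and a peak in its 3' UTR (chr5:76708412-76708701). SMO had a peak in its last exon (chr4:29305543-29305790), PDGFC in its 3' UTR (chr16:46617242-46617741), COL6A1 in exon 4 of 38 (chr1:159045690-159046011), and NR2F2 in exons 1 and 3 (chr17:9790760-9790906 and chr17:9783574-9783756). The table gives no value per animal for these peaks.

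Among 5586 rows with a mean of at least 5 FPKM outside all lists, the patterns most like the mean log2 profile of the 8 genes over the 6 libraries were those of TBL1XR1 (a subunit of nuclear corepressor complexes), NT5C2 (a purine nucleotidase), USP53, SLC25A6 (a mitochondrial ADP/ATP carrier) and PRR14L, with a Pearson r of 0.993 to 0.996. Their log2 fold changes ran from 0.25 to 1.01. The most opposite patterns were those of CCER1, FAM8A1 and IGSF11 (r of -0.997 to -0.999). CCER1 was at 39.1, 30.6 and 33.5 FPKM at 1.5 years and at 9.12, 24.4 and 14.9 FPKM at 5 years. FAM8A1 hardly differed, at 39.0, 38.0 and 38.7 FPKM and at 34.3, 37.6 and 35.8 FPKM (log2 fold change -0.105). Pearson r ranks the shape of a pattern and not its size, and these rows were picked as the extremes of 5586. These values describe 6 libraries that differ in age and in germ cell markers together.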

How the data were processed

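Testis RNA of 3 yaks of 1.5 years and 3 of 5 years was sequenced as IP and input libraries. The FPKM values of the input libraries were deposited by the authors. The authors had cleaned the reads with Trimmomatic and SortMeRNA (which removes rRNA), aligned them to LU_Bosgru_v3.0 with HISAT2 (version 2.0.4 in the submitters' processing notes) and kept uniquely mapped reads, so near-identical genes such as the actins are uncertain. The program that computed FPKM is not given in the sources used here. The table does not hold fragment counts, so the depth behind a value is unknown, and no interval or floor from counts was given. In low rows the most frequent ratio of a library to replicate 1 of 1.5 years was 0.907 to 1.00, but only 8.03 to 18.4% of those rows shared it, so relative depth is uncertain. The authors called differential peaks with MeTDiff and annotated them with ChIPseeker. Their widths in bp are other deposited values, used as given, and how replicates entered is not stated.

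The ages were compared in limma (version 3.58.1, R 4.3.3) by moderated tests with an intensity trend. Values were log2(FPKM + 0.1) of the 12437 rows with a mean of at least 0.5 FPKM. Log2 fold changes are therefore on the log2(FPKM + 0.1) scale, understate changes of low genes, and are positive where the 5-year-old testes are higher. Two-sided tests were used, with Benjamini-Hochberg adjustment over all rows tested. For 1 gene, exact permutation of 3 against 3 libraries gives no p below 0.1. The fit was tested on simulated data. Other steps used Python 3.11.15 with pandas 2.3.3, numpy 2.4.6 and matplotlib 3.10.9.

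The 8 genes, the lists and the tests were chosen with earlier results of these data known. The text names the 8 genes, of each list at most the most abundant row and the largest rise and fall, in the 6 related lists the rows with an unadjusted p-value under 0.05, and the 5 most and 3 least like rows by Pearson r. Relatives of the 8 genes in their protein families and the ratios to other genes were added after the table was opened, and other names were added after their values were seen. For a symbol on several rows (PTCH1, PDGFB, TCF21, NR2F2, SPARC, VIM, MYH9 and others), the row with the highest mean was used. Genes without a row under their symbol (CALD1, TPM1, COL1A1, COL6A3 and PDGFA in the related lists) were not analysed here. The same holds for AMH and CLDN11 of the Sertoli cell list and for TNP2, PRM1 and PRM2 of the elongating spermatid list. IP values, peaks of the single groups and sequences of the 8 genes were not analysed either. Alternatives were other pseudocounts, filters, scalings, no trend, a replicate block, FPKM summed by symbol and each library left out in turn.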

Additional observations from a re-analysis of the deposited data

How the results depend on the processing

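The number of rows with an adjusted p-value under 0.05 was 4 with all libraries, 2 with a pseudocount of 0.01, 2 with a mean FPKM of at least 1, 2 with FPKM summed by symbol, 8 with no filter, 9 without the trend and 1 with the replicate block. It ran from 0 to 2403 when 1 library was left out, with 0 without replicate 3 of 1.5 years and 2403 without replicate 2 of 5 years. At an unadjusted p-value under 0.05, 1767 rows were higher and 1356 lower at 5 years. The number of the 8 genes with an unadjusted p-value under 0.05 and a higher level at 5 years was 5 in every setting with all libraries except the replicate block, and 3 to 5 when 1 library was left out, with 3 without replicate 3 of 5 years. When 1 library was left out, 1034 to 2713 of the 12437 rows were higher at that threshold. By the adjusted p-value the number of the 8 genes was 0 in every setting except without replicate 2 of 5 years (5), a leave-one-out range of 0 to 5. Their median log2 fold change was 0.60 to 0.84 over the other settings. LUM was not tested with a mean FPKM of at least 1, which gave the 0.84. The log2 fold change of CNN1 was -0.065 (without replicate 1 of 1.5 years) to 0.47 and that of LUM -0.18 (without replicate 1 of 5 years) to 0.90 when 1 library was left out. The cause was not tested. Replicate numbers did not pair the samples (Pearson r of the deviations of same-numbered samples of -0.022, -0.091 and 0.0067). With the replicate number as a block, 4 of the 8 genes had an unadjusted p-value under 0.05, since that of MYH11 was 0.0501. In that setting 1403 of the 12437 rows were higher at 5 years at the same threshold. The unknown number of fragments limits what can be said of CNN1 and LUM, the least abundant of the 8 genes.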

Other observations

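Relatives of the 8 genes in their protein families did not share a single direction. VIM (vimentin), the intermediate filament relative of desmin in mesenchymal and Sertoli cells, was at 7.48, 10.2 and 9.29 FPKM at 1.5 years and at 28.9, 13.6 and 19.4 FPKM at 5 years, a log2 fold change of 1.14 (unadjusted p = 0.00455, adjusted p = 0.154, limma). MYH9, a non-muscle relative of MYH11 that stands on 10 rows, was also at 1.14 (2.43 to 6.72 FPKM at 5 years in the row used), and MYH10 was at 0.30. The cytoplasmic actins ACTB and ACTG1 were far more abundant than ACTA2 and had log2 fold changes of 0.54 and 0.06. TAGLN2, a relative of TAGLN found outside muscle, was at 8.83, 17.5 and 16.1 FPKM at 1.5 years and at 9.56, 10.3 and 9.84 FPKM at 5 years (-0.45, adjusted p = 0.303), and CNN2 was at -0.08. MYH14, TAGLN3, PRPH and GFAP were below the level tested, and ACTC1 and CNN3 were without a row.

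DCN and LUM are neighbours in the RefSeq annotation of another yak assembly, beside KERA and EPYC, further members of the same proteoglycan family. KERA and EPYC were at 0.0935 and 0.0089 FPKM on average. Among the tested genes within 2 places of the 8 genes, those with an unadjusted p-value under 0.05 other than DCN itself were ABCC1 and DNPEP. Most of the tested neighbours were not under that threshold, and among all rows 14.2% were higher and 10.9% lower at it. ABCC1, near MYH11, had a log2 fold change of 1.13 (unadjusted p = 0.0029) and DNPEP, next to DES, had one of -0.92 (unadjusted p = 0.023). The adjusted p-values were 0.154 and 0.165 (limma).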
